A study of Caenorhabditis elegans with 2 samples.

Results

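The 7 genes described here, sel-1, sel-11, cup-2, der-2, uggt-1, uggt-2 and manf-1, encode factors that dispose of misfolded proteins of the endoplasmic reticulum (ER) or inspect and guard folding there. They were chosen by name and make up 7 of the 19985 protein-coding genes of the C. elegans annotation used (Ensembl release 115, WBcel235). ChIP-seq, the sequencing of DNA recovered with an immunoprecipitated protein, was used to map the binding of LET-607 in 1 group of 2 biological replicates. The group consisted of whole young adult hermaphrodites of the transgenic strain YL529, collected 67 h after starved first-stage larvae had been released from synchronization. All animals carried LET-607 tagged at its C-terminus with GFP-FLAG, and chromatin was precipitated with an antibody against GFP, so both replicates come from 1 transgenic line and mix all tissues of the animal. No untagged or mutant group was analysed here. The design therefore permits a description of where peaks lie at these genes and how well the replicates match, and no test between conditions.

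LET-607 is the C. elegans member of the CREB3 family, basic leucine zipper transcription factors that are made as proteins of the ER membrane. In ER-associated degradation (ERAD), misfolded proteins are recognised in the ER lumen, moved back through the membrane, ubiquitinated and handed to the proteasome in the cytosol. SEL-11 is the worm HRD1-type ubiquitin ligase of that membrane complex, SEL-1 its SEL1L-type partner, and CUP-2 and DER-2 are derlins, membrane proteins of the same route. UGGT-1 and UGGT-2 belong to the UDP-glucose:glycoprotein glucosyltransferases, which in other animals put a glucose back on incompletely folded glycoproteins so that lectin chaperones bind them again, and MANF-1 is the worm form of MANF, a small ER-resident and secreted protein linked to ER stress in mammals.

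Sequence around the strongest promoter summit is shown for 5 of the genes, because CREB-type factors recognise sites built on the core ACGT and the genes differ in how many such cores lie under the peak. Sequence at cup-2 and uggt-2 is not shown here. A summit is the position within a peak that the authors' peak caller marked as its maximum. Each line gives 75 bases to either side of the summit in the pooled data, 5′ to 3′ on the strand of the gene (build ce11, RefSeq WBcel235 sequence). Capitals mark ACGT, extended to TGACGT or GACGTG on either strand where these are present.
manf-1, chrIV:2928552-2928702, minus strand: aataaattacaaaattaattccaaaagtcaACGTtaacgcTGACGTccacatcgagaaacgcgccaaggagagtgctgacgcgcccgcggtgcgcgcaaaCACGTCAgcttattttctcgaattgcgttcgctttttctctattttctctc
uggt-1, chrX:7501093-7501243, minus strand: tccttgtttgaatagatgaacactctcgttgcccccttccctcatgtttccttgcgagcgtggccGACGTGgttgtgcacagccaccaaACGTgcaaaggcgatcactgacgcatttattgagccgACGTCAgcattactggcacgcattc
sel-1, chrV:12560515-12560665, plus strand: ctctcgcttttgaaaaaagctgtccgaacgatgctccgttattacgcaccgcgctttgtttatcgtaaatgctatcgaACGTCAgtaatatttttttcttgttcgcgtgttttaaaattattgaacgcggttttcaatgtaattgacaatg
sel-11, chrV:11767321-11767471, plus strand: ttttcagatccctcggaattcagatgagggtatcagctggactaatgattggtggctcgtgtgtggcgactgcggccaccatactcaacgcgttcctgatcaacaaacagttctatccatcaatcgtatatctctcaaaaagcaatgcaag
der-2, chrIII:7223705-7223855, minus strand: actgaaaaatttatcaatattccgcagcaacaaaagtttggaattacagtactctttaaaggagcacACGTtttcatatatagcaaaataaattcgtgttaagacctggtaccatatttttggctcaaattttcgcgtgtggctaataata
The manf-1 and uggt-1 windows hold 3 ACGT cores each, the sel-1 and der-2 windows 1 each, and the sel-11 window 0. Windows of the same length at cup-2, which has IDR summits, and at uggt-2 hold 1 ACGT core each, with no copy of TGACGT in either. The longer TGACGT occurs 2 times in the manf-1 window, 1 time each in those of uggt-1 and sel-1, and 0 times in those of sel-11 and der-2. These counts have no share over all genes beside them, since shares are given below for other window lengths only.

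Strong, reproducible LET-607 peaks lay upstream of manf-1, uggt-1 and cup-2. In contrast, sel-1, sel-11, uggt-2 and der-2 had only weaker promoter entries, outside the authors' final list. A promoter window was taken to run from 1000 bp upstream of a gene's 5′ end to 200 bp downstream of it. The authors' final list, set by a threshold on reproducibility (IDR), held 2372 entries. It placed a summit in the window of 3 of the 7 genes, against 7.76% of all protein-coding genes. Its entries were the 2372 strongest of the pooled list given next. Membership thus marks a pooled rank and is no separate check of each peak between replicates. The authors' longer, relaxed list from the pooled replicates held 26789 entries and placed a summit in all 7 windows, against 36.4% of all genes. It was deposited as peaks and background to serve as IDR input. Its entries are called peaks here, but a weak one does not by itself show binding. The −log10 q-value was 0.21 for der-2 in the pooled list and 0.13 for uggt-2 in replicate 1. Relaxed lists of single replicates held 26463 peaks in replicate 1 and 22592 in replicate 2. Each of the 7 genes had a relaxed summit from both of them, against 23% of all genes. The signal of a peak was assigned by the authors, on a scale that is not stated, and is read here only within its list. Over the 7 genes the median signal of the strongest pooled promoter peak was 69.5, and over all 7282 genes with such a peak it was 37.1. The genes were chosen with earlier results of these data known, so these counts and medians were not tested.

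**Figure D1:**
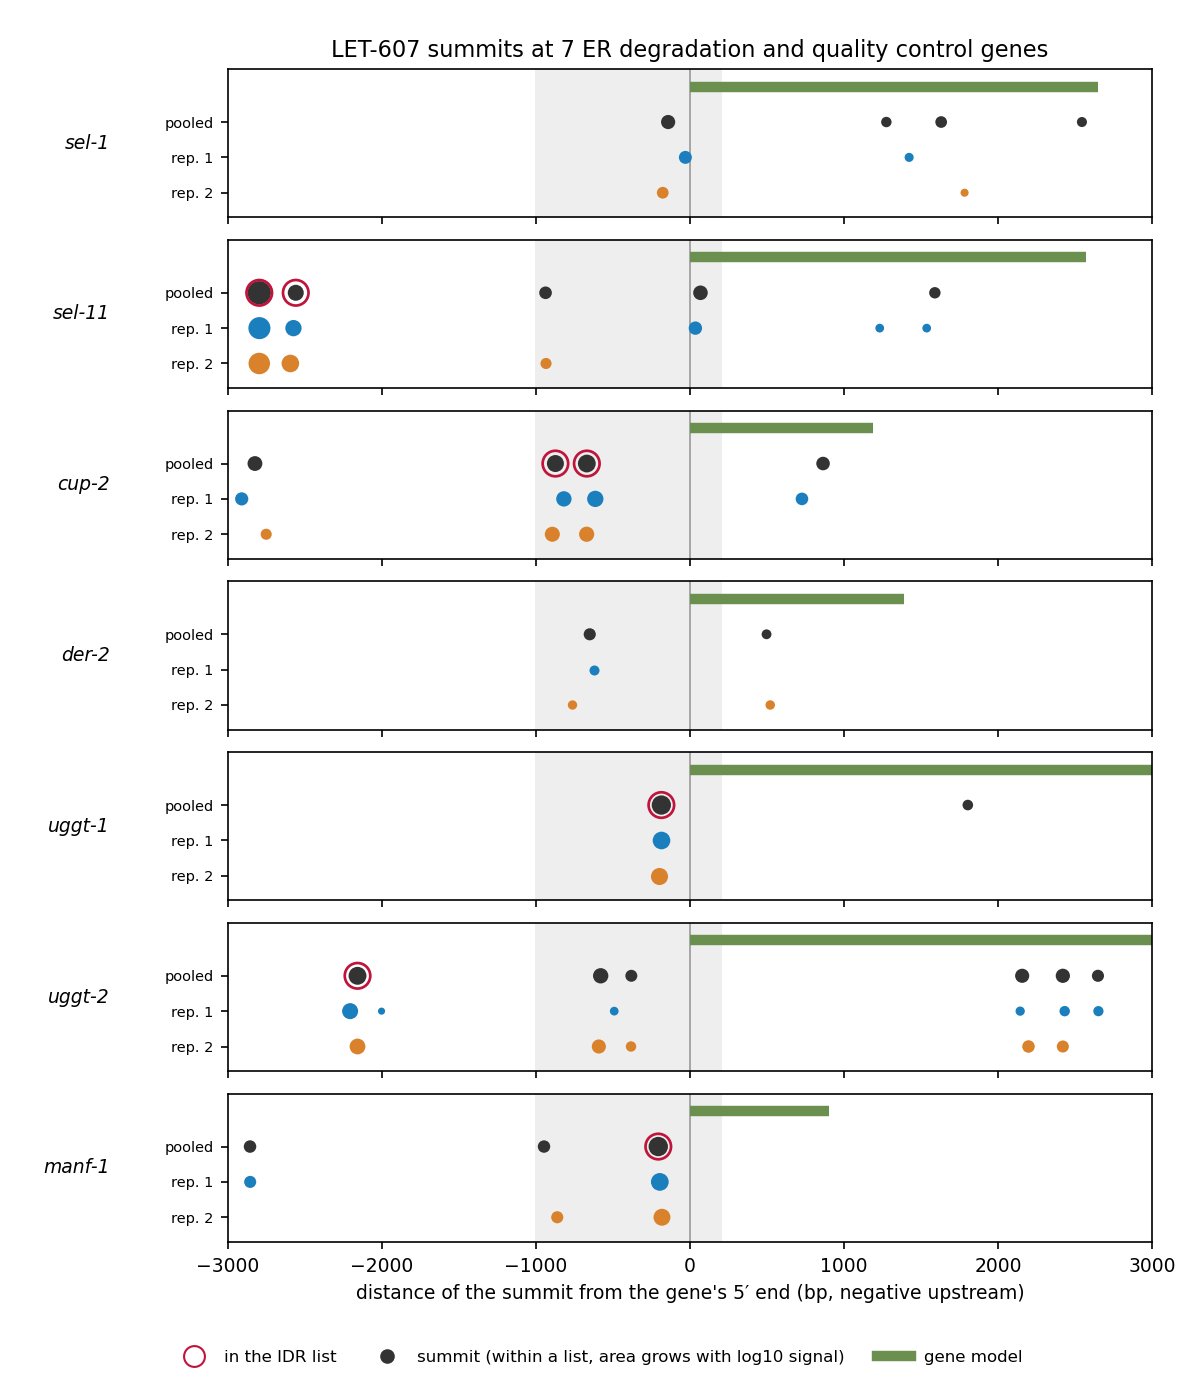
Summits of LET-607 peaks from 3000 bp upstream of each gene's 5′ end to its 3′ end (cut at 3000 bp for uggt-1 and uggt-2), in the pooled and the 2 replicate lists; grey shading is the promoter window, red circles mark pooled summits that are in the IDR list, and point area grows with log10 signal and is comparable only within a list. Summits of the 3 lists nearly coincide at uggt-1 and manf-1, and the circled summits at sel-11 and uggt-2 lie outside the shaded window.

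MANF-1 is encoded by the gene with the strongest promoter peak of the 7. manf-1 (WBGene00021888; IV, 2927517 to 2928421, minus strand, ce11) had its pooled summit 206 bp upstream of the 5′ end, at signal 266.7 and rank 307 of the IDR list. In replicate 1 the summit lay 196 bp upstream at signal 150.1 and rank 284, and in replicate 2 it lay 182 bp upstream at signal 113.9 and rank 356. The replicate summits were thus 14 bp apart and their ranks close. The strongest promoter peak of manf-1 had a higher signal than those of 96.6% of the genes with a pooled promoter peak. No other protein-coding gene had the summit in its window, and the nearest other 5′ end, that of ubc-13, was 2730 bp away. A second, weaker pooled summit lay 948 bp upstream at rank 10619, with a counterpart 862 bp upstream in replicate 2 at rank 3850. Replicate 1 had no summit there.

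uggt-1 had the second strongest promoter peak. The gene (WBGene00018604; X, 7495694 to 7500982, minus strand) had its pooled summit 186 bp upstream at signal 258.8 and rank 326. Replicate 1 placed it 187 bp upstream at signal 143.7 and rank 316, and replicate 2 placed it 199 bp upstream at signal 119.0 and rank 327. These summits were 12 bp apart and the ranks nearly equal. Its signal was above that of 96.3% of genes with a pooled promoter peak, and the peak was in reach of uggt-1 alone, the nearest other 5′ end (F48E3.6) being 1925 bp away. Over all 1550 genes with an IDR promoter summit, the median position of the strongest one was 242 bp upstream, so both manf-1 and uggt-1 had summits a little closer to the 5′ end than the median.

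The paralogue uggt-2 had a much weaker and less reproducible promoter peak. In uggt-2 (WBGene00009178; I, 9317713 to 9327279, plus strand) the strongest pooled promoter summit lay 580 bp upstream at signal 69.5 and rank 2799, just below the lowest IDR signal of 78.2. Replicate 2 had a summit 592 bp upstream at signal 49.0 and rank 1595. Replicate 1 had one 492 bp upstream at signal 14.97 and rank 17036, in the weaker part of its list. The replicates thus placed uggt-2 on different sides of rank 2372, and among the 7 genes this was the largest gap in rank between them. The nearest IDR summit, at rank 772, lay 2159 bp upstream of uggt-2 and 663 bp upstream of the divergent gene F26H9.5, in whose window it fell. Inside the gene, 4 pooled relaxed summits lay in introns or coding exons between 2157 and 4920 bp from the 5′ end, at ranks 4459 to 12251, and no IDR summit was found there. The summit at 4920 bp also fell in the promoter window of hsp-70. Differences between the uggt-1 and uggt-2 peaks were not tested, since peaks of 1 list are not replicates.

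The derlin genes cup-2 and der-2 also stood far apart in rank. cup-2 (WBGene00000843; I, 10398990 to 10400177, minus strand) had IDR summits 670 bp upstream at signal 151.4 and rank 831, and 874 bp upstream at signal 116.4 and rank 1277. In replicate 1 the corresponding summits lay 615 and 819 bp upstream at ranks 689 and 1152, and in replicate 2 they lay 671 and 894 bp upstream at ranks 943 and 1027. Each summit was thus found in both replicates. Both stood nearer to the 5′ end of the divergent neighbour tag-353, which was 217 bp from the stronger and 13 bp from the weaker summit. The peaks cannot be assigned to cup-2 rather than tag-353 from position, and cup-2 lost its call when each summit was given to the nearest 5′ end only or when the window reached 500 bp upstream. The weaker of these cup-2 summits, at 116.4, was the lowest signal above the IDR limit among the 7 genes, and the strongest uggt-2 summit was the highest below it.

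der-2 had the weakest promoter peak of the 7 genes. In der-2 (WBGene00020109; III, 7221741 to 7223129, minus strand) the pooled summit lay 651 bp upstream at signal 29.6 and rank 12181, with a deposited −log10 q-value of 0.21. Replicate 1 had a summit 623 bp upstream at rank 11181 and replicate 2 one 763 bp upstream at rank 13781, so all lists placed it far down. The replicate summits were 140 bp apart. Outside the window, replicate 2 had an intronic summit 521 bp downstream at rank 12957, above its promoter summit. The pooled list had one 497 bp downstream at rank 26778. Among the genes with a pooled promoter peak, 35.5% had a lower signal than der-2. Its nearest IDR summit was 14990 bp away, at rpl-6, a ribosomal protein gene.

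The genes of the HRD1-type ligase complex had promoter peaks below the IDR threshold. sel-11 (WBGene00004768; V, 11767328 to 11769899, plus strand) had its strongest pooled promoter summit 68 bp downstream of the 5′ end, in a coding exon, at signal 55.7, rank 3842 and −log10 q-value 1.66. Replicate 1 had a summit 35 bp downstream at signal 40.1 and rank 2833, whereas the only promoter summit of replicate 2 lay 935 bp upstream at signal 23.6 and rank 6155. A second, weaker pooled summit lay near the latter, 938 bp upstream at signal 33.3 and rank 9750. Replicate 2 had no counterpart to the stronger pooled summit. The replicate summits were therefore 970 bp apart and marked different sites, and sel-11 was the 1 gene of the 7 whose replicate promoter peaks did not overlap by at least 1 bp. IDR summits at ranks 44 and 2127 lay 2797 and 2560 bp upstream of sel-11, outside its window. They stood at the divergent genes syx-5, which encodes a Golgi SNARE protein, and F55A11.1, and the nearer one was 136 bp from the 5′ end of syx-5.

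sel-1 (WBGene00004759; V, 12560732 to 12563383, plus strand) had 1 pooled promoter summit, 142 bp upstream at signal 49.7, rank 4574 and −log10 q-value 1.21. Replicate 1 had its summit 30 bp upstream at signal 36.4 and rank 3296, and replicate 2 had it 177 bp upstream at signal 27.2 and rank 4564. The peaks overlapped, with summits 147 bp apart, and neither replicate ranked the peak among its 2372 strongest. The nearest IDR summit was 36247 bp away, upstream of mma-1.

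**Figure D2:**
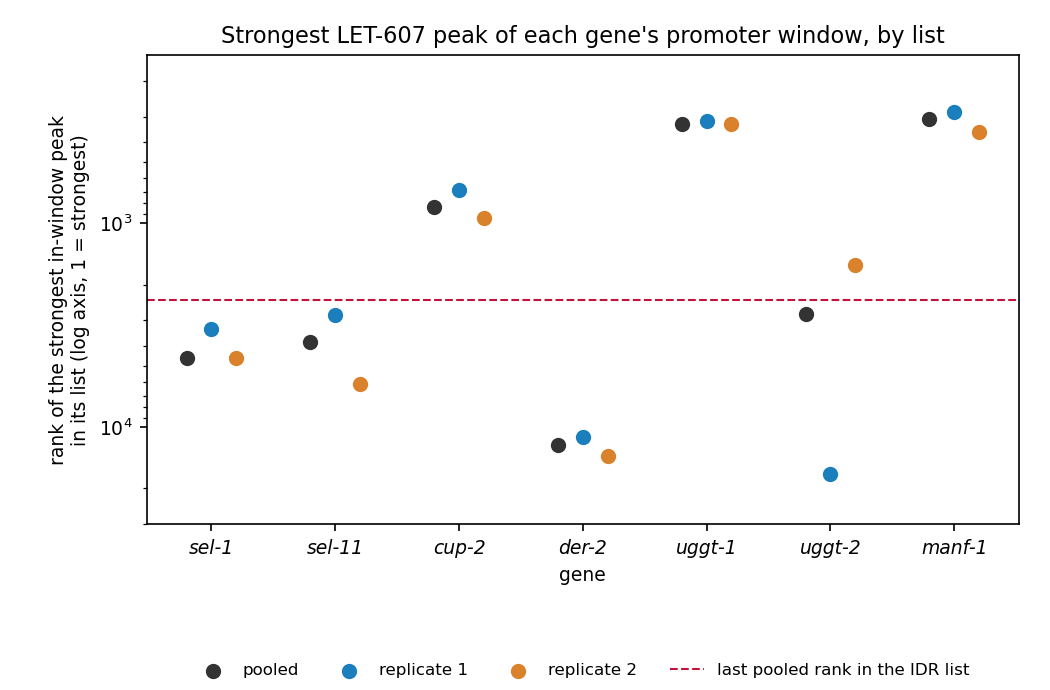
Rank of the strongest peak in each gene's promoter window (log axis, 1 is strongest) in the pooled, replicate 1 and replicate 2 relaxed lists, with the last pooled rank of the IDR list, 2372, as a dashed line. manf-1, uggt-1 and cup-2 lie above the line in all lists, sel-1, sel-11 and der-2 lie below it in all, and uggt-2 lies at 1595 in replicate 2 and 17036 in replicate 1.

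**Figure D3:**
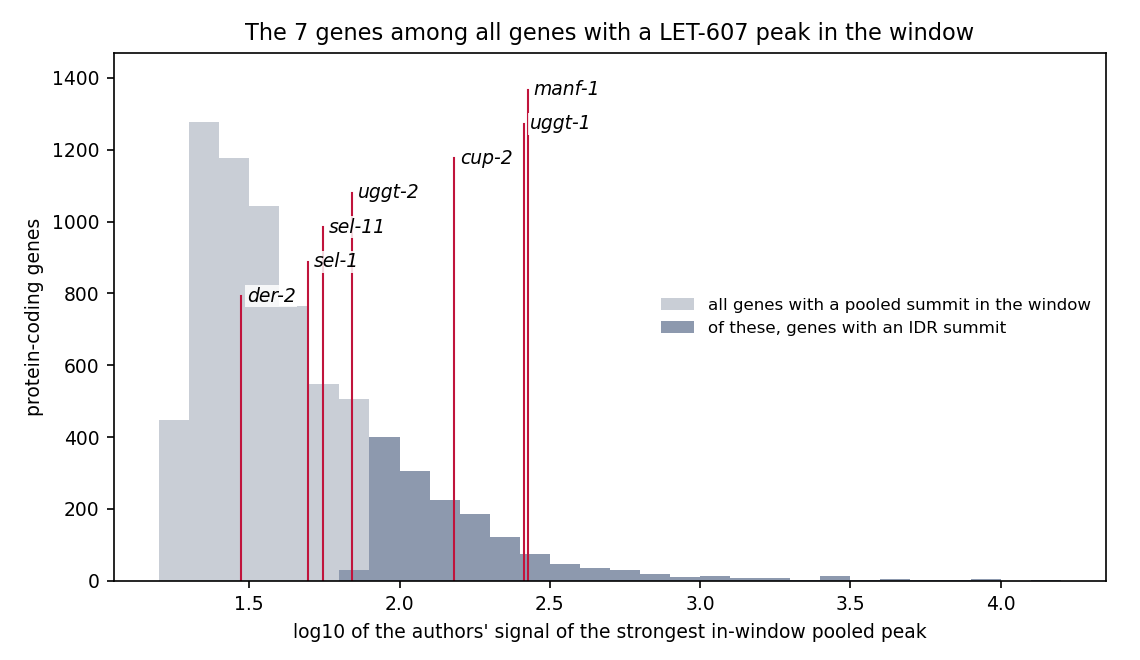
Number of protein-coding genes by log10 of the signal of their strongest pooled promoter peak, for all 7282 genes with such a peak (light bars) and those of them with an IDR summit (dark bars, drawn over the light ones), with the 7 genes marked by red lines. der-2 lies among the weaker peaks and manf-1 and uggt-1 in the upper tail, below the strongest peaks of the list.

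TGACGT or GACGTG lay close to the pooled summit at manf-1, uggt-1 and sel-1, and the shorter ACGT did so at 6 of the 7 genes. Sequences were searched on both strands within 50 bp of the strongest pooled promoter summit of each gene. TGACGT, the core of cAMP response elements, was present at manf-1 and sel-1, or 2 of the 7 genes, against 4.93% of the 7282 genes with such a summit and 8.22% of all IDR summits. At manf-1 it occurred 2 times, with the first base 241 bp upstream of the 5′ end on the gene's strand and 180 bp upstream on the other strand, on opposite sides of the summit at 206 bp. At sel-1 it lay 3 bp from the pooled summit and 38 bp from that of replicate 2, but 104 bp from that of replicate 1. With the summits of replicate 1 alone, TGACGT was thus within 50 bp at manf-1 only. This was 1 of the 7 genes, against 4.93% of the genes with a replicate 1 summit. GACGTG was present at manf-1 and uggt-1, against 3.82% of the genes with a summit, and at uggt-1 it lay 5 bp from the summit. The nearest TGACGT of uggt-1 was 51 bp from the summit and thus just outside the search window. ACGT alone, which is contained in each of these and common in the genome, was found in 6 of the 7 genes, all but sel-11, against 23.6% of the genes with a summit. It lay 5 bp from the summit at der-2, the weakest peak, 27 bp at cup-2 and 39 bp at uggt-2. TGACGTGG, a longer form, was found at 0 of the 7, against 0.577%. The control TGCAGT, which is TGACGT reversed, was found at 0 of the 7, against 5.04% of these genes and 6.58% of all IDR summits. A match describes the letters present and not a site in use.

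The number of copies of the core in the whole promoter window differed between the genes and did not follow peak strength throughout. Within the 1201 bases of the window, uggt-1 held 4 copies of TGACGT, manf-1 held 3, and cup-2, which has IDR summits, held 1, as did sel-1 and der-2, which have none. sel-11 and uggt-2 held 0. TGACGT was present in such windows of 32.6% of all protein-coding genes, in 3 or more copies in 3.06% and in 4 or more in 0.986%. The copy of cup-2 lay 75 bp upstream of its 5′ end, 595 bp from the stronger summit, and that of der-2 lay 200 bp from its summit. The manf-1 window also held the 1 TGACGTGG found among the 7 genes, 940 bp upstream, 727 bp from the main summit and near the weaker pooled summit at 948 bp. The reversed control occurred 3 times in the sel-1 window, 1 time each in those of cup-2 and uggt-2 and 0 times in the others. A narrower promoter sequence, from 250 bases before to 50 bases after the 5′ end, was also searched. There TGACGT was present in 4 of the 7 genes, against 10.3% of all genes and 13.2% of those with an IDR summit. The control was present in 2 of the 7, against 9.54% of all genes and 11.7% of those with an IDR summit.

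Other genes of ER degradation and quality control included some with strong, some with weak and some with no pooled promoter peaks. Of 17 other ERAD genes listed, 14 were matched to the annotation. Among these, 4 had an IDR promoter summit, 6 a pooled relaxed one only and 4 neither, beside the 7.76% and 36.4% of all genes named above. The strongest was at ubql-1, a ubiquilin gene, at rank 25, but that summit was shared with pdi-3, a protein disulfide isomerase gene. cdc-48.1, which encodes the ATPase that extracts ERAD substrates from the membrane, had a summit 153 bp upstream at rank 49 with no other gene in reach, and ranks 50 and 44 in replicates 1 and 2. Its paralogue cdc-48.2 had a relaxed peak at rank 2447, close below the IDR limit. ubc-6, a ubiquitin-conjugating enzyme gene, had an IDR summit at rank 419 shared with aka-1, and the ubiquitin ligase gene rnf-121 one at rank 1387 shared with C16C10.4. The genes ubc-7, marc-6, rnf-5, ufd-1 and ubxn-4 had relaxed summits only, at ranks 3265 to 10970. No pooled summit lay in the windows of hrdl-1, npl-4.1, npl-4.2 and png-1. Of these, hrdl-1 had a summit in replicate 2 only, 534 bp upstream at rank 11883.

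In the calnexin cycle, the lectin chaperone system that UGGT enzymes feed, 1 of 5 genes had an IDR summit, against 7.76% of all genes. The 1 gene was crt-1, which encodes calreticulin, at rank 37 of the pooled list. Its summit lay 277 bp upstream in the pooled and both replicate lists. The glucosidase genes aagr-3, aagr-4 and mogs-1 had relaxed summits only, at ranks 2506, 2611 and 4096. Of all genes, 28.7% had a pooled relaxed summit and no IDR summit. cnx-1, the calnexin gene, had no pooled summit in the window but a replicate 1 summit 33 bp upstream at rank 23009. Against 7.76% of all genes, all 6 genes listed for the unfolded protein response had IDR summits. They were the sensor genes ire-1, pek-1 and atf-6 at ranks 1656, 310 and 1171, the transcription factor gene xbp-1 at rank 24, and the BiP-type chaperone genes hsp-3 and hsp-4 at ranks 8 and 725. manf-1 and uggt-1 thus ranked between xbp-1 and hsp-4 and beside pek-1. These lists were not tested against the 7 genes or against all others.

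**Figure D4:**
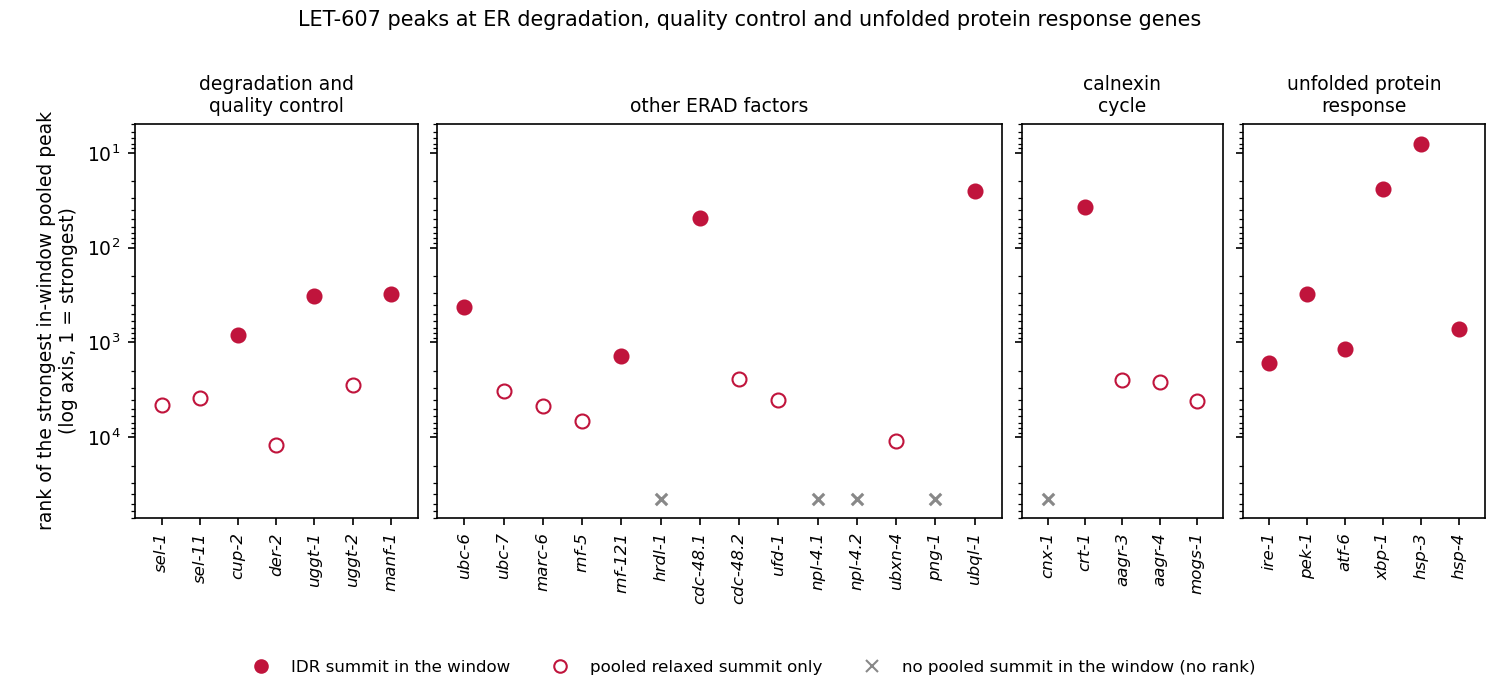
Rank of the strongest pooled peak in the promoter window (log axis, 1 is strongest) for the 7 genes and 3 lists of related genes; filled points have an IDR summit, open points a relaxed summit only, and crosses no pooled summit. Filled points make up 3 of 7, 4 of 14, 1 of 5 and 6 of 6 genes from left to right.

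For each gene with an IDR summit, the promoter peak most like it was the one with the smallest summed difference of rank over the pooled, replicate 1 and replicate 2 lists. For manf-1 this was the peak of klc-1 and let-70, at ranks 323, 294 and 359, a summed difference of 29. For uggt-1 it was the peak of pdtf-1 and T26A8.4, at ranks 317, 310 and 304, a summed difference of 38. For cup-2 it was the peak of K08B5.2, at ranks 849, 686 and 876, a summed difference of 88. The measure rests on 2 replicates and their pool and describes rank alone.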

How the data were processed

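LET-607 ChIP-seq was deposited as peak lists in narrowPeak format for 2 replicates, per the labels. Per the descriptions deposited with the files, the authors called relaxed peaks per replicate and on both replicates pooled, with 1 control alignment, and took the optimal IDR list from these. The pooled relaxed list is labelled as peaks and background. Aligner and peak caller: not given in the sources used here. Ranks within a list rest on the deposited signal of each peak. The deposited −log10 q-value was tied at its maximum for 2252 IDR peaks and gave no ranks. All 2372 IDR peaks were the strongest of the pooled list. Library depth is unknown, since no read counts were analysed here. The 4 ce10 lists were not used, because the annotation and genome have ce11 coordinates.

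A summit was assigned to every protein-coding gene of Ensembl release 115 in whose window it lay, and percentages of genes are over all 19985. The 7 genes, the 3 lists of related genes and the 5 sequences searched were chosen with earlier results of these data known. Also named are genes that share or stand nearest to a summit, genes most like by rank, and F48E3.6 and ubc-13, which were named after values were seen. No test was run, because there is 1 group and genes are not replicates. Assignment and sequence search were tested on simulated summits. Calculations used Python 3.11.15 with numpy 2.4.6, pandas 2.3.3 and matplotlib 3.10.9. Coordinates are 1-based.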

Additional observations from a re-analysis of the deposited data

How the results depend on the processing

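The number of the 7 genes with an IDR summit, 3, was 2 with a window reaching 500 bp upstream (6.24% of all genes) and 2 with each summit given to the nearest 5′ end only (5.88%), cup-2 being lost both times. It was 3 with 2000 bp (10.1% of all genes), with any transcript's 5′ end (8.47%) and among the 1186 strongest IDR peaks (4.25%). No IDR list of 1 replicate was among the lists used, so the 2372 strongest relaxed peaks of the other replicate took its place. By that different measure the count was 4 without replicate 1 (7.44% of all genes), with uggt-2 added, and 3 without replicate 2 (7.79%). The relaxed count of 7 was 5 with 500 bp (28.1% of all genes), without cup-2 and der-2. It was 7 in replicate 1 alone (35.8%) and in replicate 2 alone (32.8%). Genes with a summit of each replicate anywhere in the window, 7, were 6 when the peaks had to overlap by 50% of each, against 19% of all genes. They were also 6 with an overlap of at least 1 bp (21.3%), a rule added after the data were seen. Both rules lost sel-11. With summits within 100 bp the count was 4 (16.3%), losing sel-1 and der-2 too. TGACGT near the summit, 2, was found in 1 gene (sel-1) within 25 bp, against 2.61% of the genes with a summit. Within 100 bp it was found in 3, with uggt-1 (8.35%), and as TGACGTGG in 0 (0.577%). Without replicate 1 the count was 2 (5.01%), and without replicate 2 it was 1, manf-1 (4.93%). The strongest uggt-2 peak ranked 13053 with 500 bp. No paired analysis was possible because there is 1 group. Unknown depth limits what a missing or weak peak shows.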
